A study of Danio rerio with 9 samples.

Results

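Genes that mark neurons and their synapses were followed in whole zebrafish embryos exposed to a ketone or a quinone derived from polycyclic aromatic hydrocarbons. The 36 listed genes span early neuronal regulators, axon and cytoskeletal proteins, the machinery of transmitter release, and enzymes and transporters of the transmitters. A gene of the count table belonged to the set when its symbol in the reference gene-name table equalled a listed name, ignoring case, or, failing that, the name without its final a or b. For 18 listed names the symbol matched exactly and for 16 the shortened name matched, which gave 39 of the 32434 genes in the table. The names gap43 and sncb were matched to no row. Because a match takes every gene with that symbol, 9 symbols stand for 2 genes each. These are printed with their Ensembl identifiers. Except for STMN4, which matched by its full name, which gene of a pair is a listed a or b copy cannot be told from the symbol.

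RNA came from embryos of the wild-type 5D strain, collected at 48 hours post fertilization (hpf). The 3 groups had 3 vials each and 1 library per vial. Control embryos received the vehicle, 1% dimethyl sulfoxide (DMSO). BEZO embryos received 10 µM 1,9-benz-10-anthrone, a ketone, and BaAQ embryos 10 µM benzanthracene-7,12-dione, a quinone, both in the same vehicle. All were held from 6 to 48 hpf in vials of 20 embryos in 2 mL, in the dark, at a temperature that the labels give as 37 °C. The labels call the vials independent biological replicates, so 1 library averages 20 whole embryos and holds every tissue.

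As background, differentiating neurons of the zebrafish embryo switch on the RNA-binding proteins Elavl3 and Elavl4, extend axons built on microtubules and neurofilaments, and then assemble synapses. Transmitter release needs SNARE proteins, such as Snap25 on the cell membrane and Vamp2 on the vesicle, together with the calcium sensor synaptotagmin and the clamp complexin. Neurons are then told apart by transmitter: Gad enzymes make GABA, vesicular transporters of the Slc17a6 type load glutamate, and choline acetyltransferase, tyrosine hydroxylase and tryptophan hydroxylase make acetylcholine, dopamine and serotonin. At 48 hpf the retina is also producing neurons.

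The libraries held 8106613 to 14435626 counted reads, and the members made up 0.515 to 0.527% of the Control reads, 0.471 to 0.498% of those of BEZO and 0.509 to 0.517% of those of BaAQ. Every member had more than 3 reads in all 9 libraries and passed the filter on low counts, with 12 to 14057 reads in a library. Levels are in CPM, read counts brought to a common library total after TMM scaling, which adjusts totals to the bulk of the genes, and are given as mean ± SD over 3 libraries. The spread between vials of a group was small, with a median coefficient of variation over the members of 5.95% in Control, 5.02% in BEZO and 4.58% in BaAQ. Log2 fold changes carry their standard error (SE). The test was edgeR's quasi-likelihood test on all 9 libraries, and passing means an adjusted p (Benjamini-Hochberg, over the 18860 genes tested) under 0.05. No gene lengths of the build used were at hand, so levels of different genes are not compared with each other.

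The comparison of BEZO with Control asks what the ketone altered in neuronal transcripts by 48 hpf. A few genes fell and most did not pass. The beta tubulin gene tubb5 fell 1.45-fold, the adhesion molecule gene ncam3 2.07-fold and CNRIP1 (ENSDARG00000037337), for a protein that binds cannabinoid receptors, 2.16-fold, while NEUROD1, CPLX2 and SNAP25 (ENSDARG00000058117) fell 1.25-, 1.21- and 1.32-fold. Of the 39 members 6 were lower and 0 higher (edgeR, adjusted p under 0.05), which is 15.4% of them, beside 6.44% of all tested genes called in either direction, 3.35% called lower and 3.09% called higher. The members were chosen with earlier results of these data known, so such shares describe them and are not a test. DESeq2, limma voom and edgeR's likelihood ratio test also called 6. An unadjusted p under 0.05 was found for 12 of the 39 members, beside 3689 of the 18860 genes tested. Among the 30 members with a mean of at least 10 CPM, 4 were lower, or 13.3%, where 9.24% of all genes at that level were called, 4.7% lower and 4.54% higher. The median log2 fold change of the members was -0.09, and that of all tested genes was -0.00. All 3 BEZO libraries lay below all 3 Control libraries for 14 members (35.9%, against 12.4% of all genes tested) and above them for 1, ELAVL3 (2.56%, against 12.3%). In whole embryos, fewer cells of a type and less RNA per cell cannot be told apart.

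The comparison of BaAQ with the same Control libraries asks the same of the quinone. Here tubb5 fell 1.41-fold and ncam3 rose 2.79-fold, and no other member passed. The called members were thus 1 higher and 1 lower of 39, or 5.13%, below the 10.2% of all genes called in this comparison (4.82% higher and 5.41% lower). Of the 30 members with a mean of at least 10 CPM 1 was called, lower, or 3.33%, beside 14.7% of all genes at that level (6.56% higher and 8.12% lower). Of the 39, 7 had an unadjusted p under 0.05, a smaller share than over all genes (4448 of 18860). DESeq2, limma voom and the likelihood ratio test each called 2. The median log2 fold change was -0.03. The BaAQ libraries lay apart from Control above it for 4 members and below it for 3, or 10.3% and 7.69%, beside 13.3% and 14.1% of all genes. The 2 comparisons share their Control libraries, so an error in Control would enter both.

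**Figure D1:**
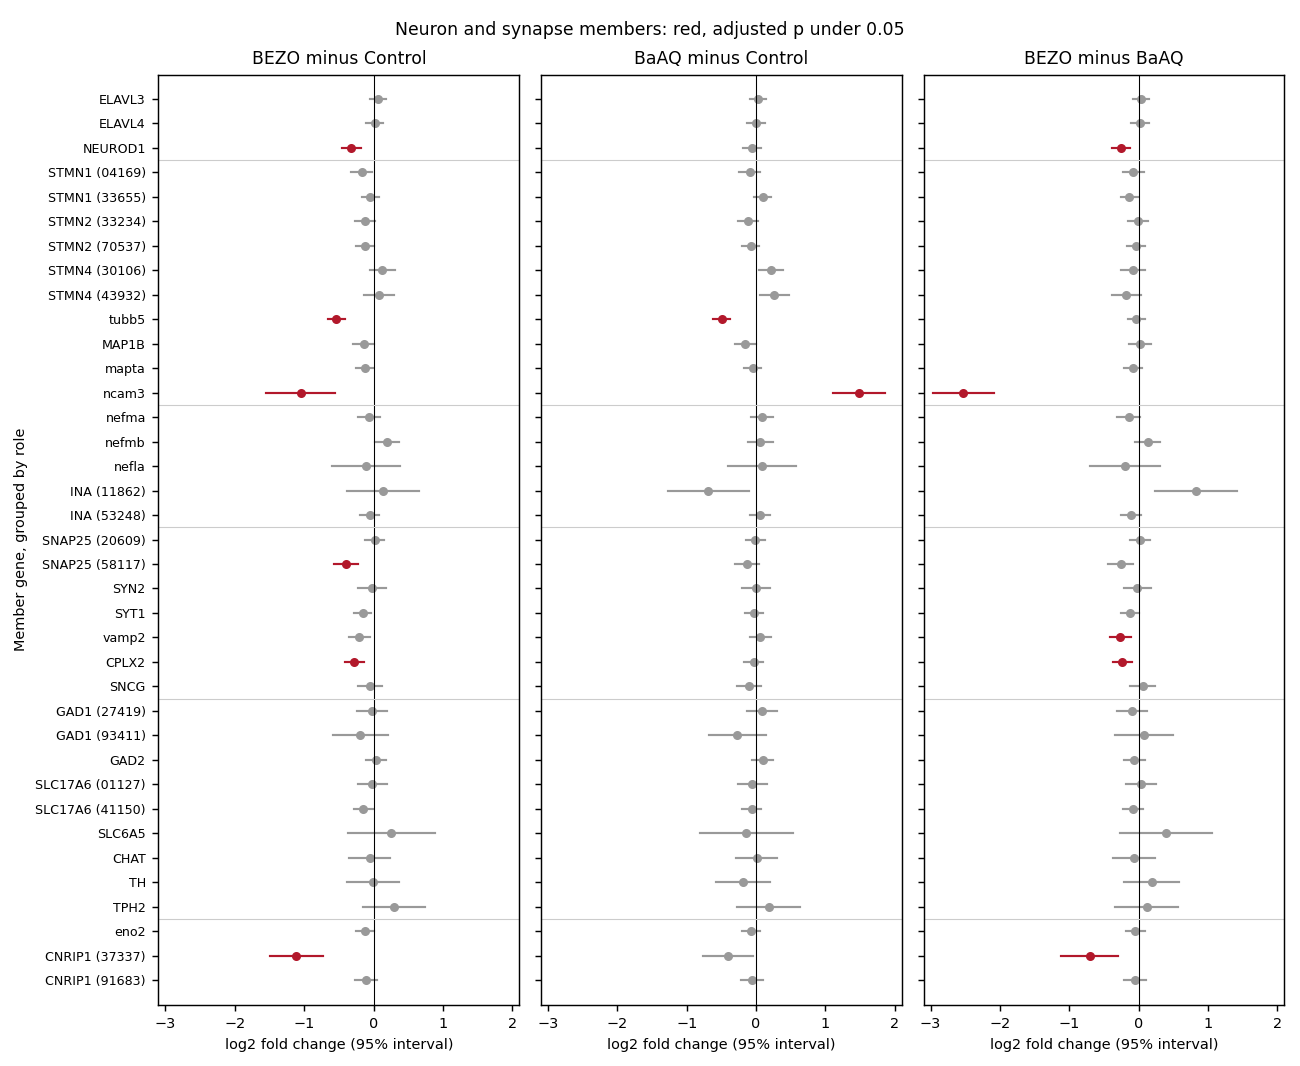
Log2 fold change (x axis) and its 95% interval for 37 of the 39 members (y axis, grouped by role), in the 3 comparisons. Red marks an adjusted p under 0.05: 6 members in BEZO against Control, 2 in BaAQ against Control and 5 in BEZO against BaAQ. Where a symbol stands for more than 1 gene, the last 5 digits of the Ensembl identifier are added.

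Of the 3 early neuronal regulators, NEUROD1 fell with BEZO, and ELAVL3 and ELAVL4 passed in neither comparison. ELAVL3, the usual pan-neuronal marker of zebrafish embryos, was at 1018, 994 and 1020 CPM in Control, at 1055, 1046 and 1066 CPM in BEZO and at 1030, 1031 and 1024 CPM in BaAQ. Every exposed library was thus above the Control range, but by little: the log2 fold change was 0.06 ± 0.06 (SE) for BEZO and 0.03 ± 0.06 for BaAQ, with adjusted p = 0.598 and 0.838. The 95% intervals ran from -0.05 to 0.18 and from -0.09 to 0.14. ELAVL4, its relative in maturing neurons, averaged 269 ± 14.8 CPM in Control, 272 ± 6.04 in BEZO and 269 ± 5.58 in BaAQ (SD, n = 3), with ranges that overlapped.

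NEUROD1 encodes a basic helix-loop-helix factor of neuronal differentiation that zebrafish also express in the retina. It was at 261, 248 and 244 CPM in Control and at 207, 186 and 210 CPM in BEZO. The lowest Control library thus stood above the highest BEZO library, and the log2 fold change was -0.32 ± 0.06 (adjusted p = 0.00314). In BaAQ it was at 230, 241 and 249 CPM, overlapping Control, with a log2 fold change of -0.06 ± 0.06 (adjusted p = 0.604).

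Among the axon and microtubule genes, tubb5 had the lowest adjusted p of the 39 members in both comparisons with Control. Its product is a beta tubulin of axonal microtubules. Control libraries held 875, 933 and 882 CPM, BEZO libraries 610, 635 and 609 CPM and BaAQ libraries 650, 640 and 613 CPM. The 6 exposed libraries lay close together, and none came near the Control range. The log2 fold change was -0.54 ± 0.06 for BEZO (adjusted p = 3.82e-06) and -0.50 ± 0.06 for BaAQ (adjusted p = 8.33e-06). Beta tubulin genes have similar coding sequences, so reads may be shared among copies and the value of a single copy is uncertain.

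The adhesion gene ncam3 moved in opposite directions with the compounds. It belongs to the family of neural cell adhesion molecules, cell surface proteins of growing axons. It was at 2.75, 4.18 and 3.05 CPM in Control, at 2.01, 1.48 and 1.33 CPM in BEZO and at 9.54, 9.71 and 9.13 CPM in BaAQ. The 3 groups did not overlap, with BEZO lowest and BaAQ highest. The log2 fold change was -1.05 ± 0.24 for BEZO (adjusted p = 0.00894) and 1.48 ± 0.18 for BaAQ (adjusted p = 1.27e-05). The gene was read 26 to 58 times per Control library, 13 to 24 times per BEZO library and 80 to 110 times per BaAQ library, so the size of the fall in BEZO rests on few reads. That call ended without Control 2 (adjusted p = 0.0747) or without BEZO 3 (adjusted p = 0.0534).

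The remaining 8 axon and microtubule genes did not pass in either comparison. The stathmins, which bind tubulin and destabilize microtubules, were present as a pair of genes each for STMN1, STMN2 and STMN4. STMN1 (ENSDARG00000033655) was at 335 ± 14.1 CPM in Control, 325 ± 9.71 CPM in BEZO and 358 ± 8.48 CPM in BaAQ, and STMN2 (ENSDARG00000033234) at 246 ± 21.7, 226 ± 9.1 and 228 ± 13.5 CPM. Both STMN4 genes had positive estimates with BaAQ, 0.22 ± 0.08 for ENSDARG00000030106 and 0.26 ± 0.10 for ENSDARG00000043932, with adjusted p = 0.113 and 0.111. They passed when libraries were scaled by their totals alone (adjusted p = 0.0447 and 0.0486). The microtubule-associated genes mapta, a tau gene, and MAP1B had log2 fold changes of -0.13 ± 0.06 and -0.14 ± 0.07 with BEZO and of -0.05 ± 0.06 and -0.16 ± 0.07 with BaAQ. MAP1B passed with BaAQ when BaAQ 3 was left out (adjusted p = 0.0474). For mapta the 3 BEZO libraries, at 354, 323 and 352 CPM, were all below the Control libraries, at 371, 378 and 376 CPM.

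The neuronal intermediate filament genes encode neurofilament subunits and alpha-internexin, which line the axon. None of 5 passed with edgeR in either comparison, and none with DESeq2, limma voom or the likelihood ratio test, although 1 had an unadjusted p under 0.05 in each. INA (ENSDARG00000053248) was at 133 ± 9.69 CPM in Control, 128 ± 8.23 CPM in BEZO and 139 ± 1.94 CPM in BaAQ. The medium chain genes nefma and nefmb had log2 fold changes of -0.06 ± 0.08 and 0.19 ± 0.09 with BEZO and of 0.08 ± 0.08 and 0.06 ± 0.09 with BaAQ. The other INA gene, ENSDARG00000011862, averaged 2.57 ± 0.575 CPM in Control, and BaAQ had 1.56 ± 0.392 CPM. Its 95% interval for BaAQ against Control, -1.28 to -0.10 on the log2 scale, was wide, and its adjusted p was 0.13.

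**Figure D2:**
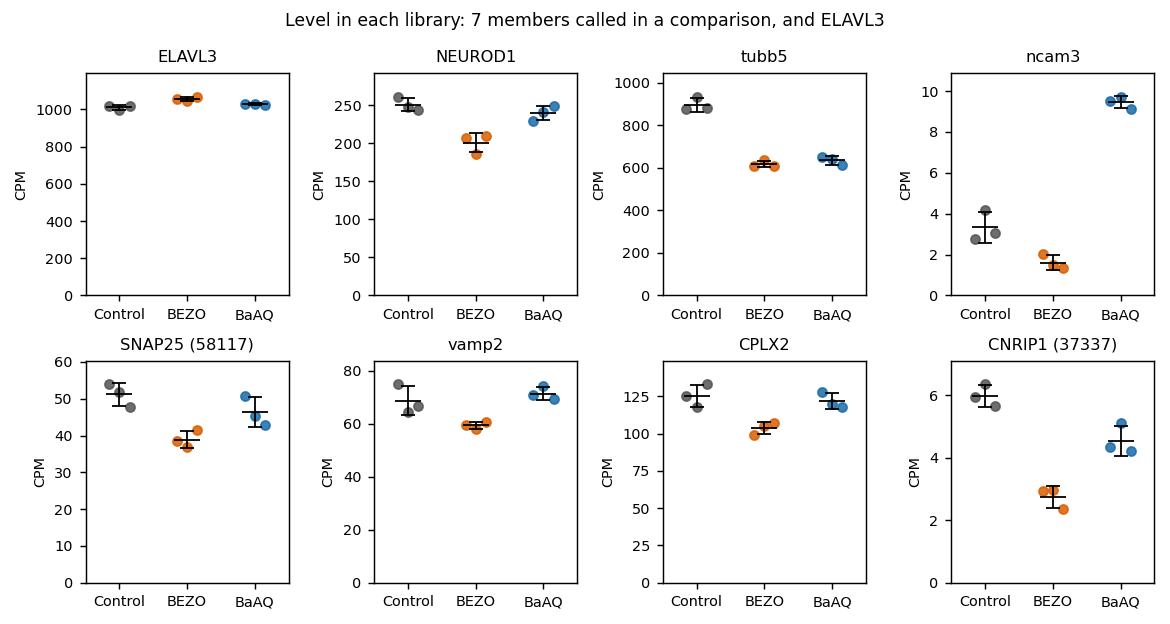
CPM (y axis, from 0) in each library for the 7 members that passed in at least 1 comparison and for ELAVL3. Points are libraries, bars the mean and SD of 3. In BEZO, tubb5, NEUROD1, CPLX2, SNAP25 (ENSDARG00000058117), CNRIP1 (ENSDARG00000037337) and ncam3 lie below Control, and in BaAQ ncam3 lies above it at 9.13 to 9.71 CPM and tubb5 below it.

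Of the 7 genes of synaptic vesicles and release, 2 fell with BEZO, or 28.6%, where 3.35% of all tested genes were called lower. Negative estimates were found for 6 of the 7 with BEZO and also for 6 of the 7 with BaAQ, beside 50.2% and 49.4% of all genes. SNAP25 encodes the membrane SNARE that pairs with vesicle proteins to drive fusion. Its less read copy, ENSDARG00000058117, was at 53.9, 51.8 and 47.8 CPM in Control and at 38.4, 36.8 and 41.4 CPM in BEZO, without overlap (log2 fold change -0.40 ± 0.08, adjusted p = 0.00529). In BaAQ it was at 50.8, 45.4 and 42.9 CPM, which overlapped Control (adjusted p = 0.344). The more read copy, ENSDARG00000020609, was at 195, 216 and 210 CPM in Control, at 212, 203 and 213 CPM in BEZO and at 218, 184 and 213 CPM in BaAQ, and its log2 fold changes were 0.02 ± 0.07 and -0.01 ± 0.07.

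CPLX2 encodes a complexin, which holds SNARE complexes ready and then assists fusion. It was at 125, 118 and 133 CPM in Control, at 99.1, 105 and 107 CPM in BEZO and at 128, 120 and 118 CPM in BaAQ. BEZO lay below both other groups, with a log2 fold change of -0.27 ± 0.07 against Control (adjusted p = 0.0133), a call that ended without Control 3 (adjusted p = 0.0945) or without BEZO 1 (adjusted p = 0.0865). BaAQ overlapped Control (adjusted p = 0.799).

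The vesicle SNARE gene vamp2 and the calcium sensor gene SYT1 had negative estimates with BEZO that did not pass. For vamp2 the levels were 74.9, 64.4 and 66.9 CPM in Control, then 59.7, 58.1 and 60.5 CPM in BEZO, and BaAQ had 70.9, 74.1 and 69.3 CPM. BEZO was below every Control library, yet its adjusted p was 0.102 (log2 fold change -0.21 ± 0.07). SYT1 averaged 116 ± 2.92 CPM in Control, and BEZO had 104 ± 2.3 CPM, with a log2 fold change of -0.16 ± 0.06 (adjusted p = 0.142). SYN2, a synapsin that tethers vesicles, and SNCG, a synuclein, had log2 fold changes of -0.02 ± 0.09 and -0.05 ± 0.08 with BEZO and of -0.00 ± 0.09 and -0.10 ± 0.08 with BaAQ. With BaAQ none of the 7 passed by edgeR or by the other 3 tools, and 0 had an unadjusted p under 0.05.

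Genes that define the transmitter of a neuron did not pass in either comparison. There were 11, and with BEZO 1 of them and with BaAQ 0 had an unadjusted p under 0.05, while edgeR, DESeq2, limma voom and the likelihood ratio test called 0. GAD2, for a GABA-making enzyme, was at 120 ± 8.58 CPM in Control, 122 ± 6.67 CPM in BEZO and 127 ± 6.47 CPM in BaAQ. For glutamate, SLC17A6 (ENSDARG00000041150) was at 76.4, 71.5 and 75.5 CPM in Control, at 67.2, 67.1 and 66.8 CPM in BEZO and at 71.3, 68.8 and 72.8 CPM in BaAQ. The BEZO libraries lay below all Control libraries, at a log2 fold change of -0.15 ± 0.07 (adjusted p = 0.204).

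CHAT, TH, TPH2 and SLC6A5 had fewer reads than GAD2 and SLC17A6 (ENSDARG00000041150), and their estimates were bounded less tightly. CHAT of cholinergic neurons was at 9.64 ± 0.687 CPM in Control, 9.31 ± 0.603 CPM in BEZO and 9.83 ± 1.79 CPM in BaAQ. TH, tyrosine hydroxylase, was at 3.89 ± 0.124, 3.87 ± 0.222 and 3.41 ± 0.218 CPM, and TPH2, the neuronal tryptophan hydroxylase, at 3.16 ± 0.895, 3.99 ± 0.412 and 3.67 ± 0.216 CPM. The glycine transporter gene SLC6A5 had 2.67 ± 1.09, 3.26 ± 0.987 and 2.51 ± 0.915 CPM. Its 95% interval for BEZO against Control ran from -0.37 to 0.88 on the log2 scale. The coefficient of variation of SLC6A5 over the Control vials was 40.9%, and that of TH 3.18%.

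The other neuronal genes are eno2, the neuronal enolase, and CNRIP1. CNRIP1 (ENSDARG00000037337) was at 5.93, 6.35 and 5.66 CPM in Control, at 2.93, 2.97 and 2.35 CPM in BEZO and at 4.34, 5.1 and 4.21 CPM in BaAQ. The groups did not overlap, with BaAQ between the others. The fall passed with BEZO (-1.11 ± 0.18 on the log2 scale, adjusted p = 0.000536) and not with BaAQ (-0.40 ± 0.17, adjusted p = 0.149). The other CNRIP1 gene, ENSDARG00000091683, was at 52.4 ± 4.02 CPM in Control, 48.4 ± 0.525 CPM in BEZO and 50.1 ± 2.29 CPM in BaAQ. For eno2, the log2 fold changes were -0.12 ± 0.06 and -0.07 ± 0.06, and the 3 BEZO libraries were below the Control libraries, at 79.1, 76.7 and 80.3 against 86.4, 84.8 and 86.1 CPM.

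The other copies of these pairs and nefla, a light neurofilament gene, did not pass in either comparison with Control. With BEZO, STMN1 (ENSDARG00000004169) gave -0.17 ± 0.07 and STMN2 (ENSDARG00000070537) -0.12 ± 0.06 on the log2 scale. SLC17A6 (ENSDARG00000001127) gave -0.02 ± 0.10, GAD1 (ENSDARG00000027419) -0.02 ± 0.10 and nefla -0.11 ± 0.24.

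For most members that did not pass, the intervals limit how large a change could have been. Of 33 such members in BEZO against Control, 28 had a 95% interval that stayed within 1.5-fold either way, and so had 31 of 37 in BaAQ against Control. Those whose interval reached further, among them TPH2, SLC6A5, INA (ENSDARG00000011862) and GAD1 (ENSDARG00000093411), were members with few reads. A p that misses the threshold does not show that a gene was unaltered.

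The direct comparison of BEZO with BaAQ, compounds given at the same dose and times, asks where the ketone and the quinone differed. Here 5 members were lower in BEZO and 0 higher, or 12.8%, beside 4.84% of all genes called, 2.56% lower and 2.27% higher. An unadjusted p under 0.05 was found for 9 of the 39 members, beside 3397 of the 18860 genes tested. At a mean of at least 10 CPM, 3 of 30 members were lower, or 10.0%, beside 6.66% of all genes at that level (3.28% lower and 3.38% higher). BEZO lay wholly below BaAQ for 13 members and wholly above it for 2, or 33.3% and 5.13%, beside 11.2% and 11.1% of all genes. The largest difference was in ncam3, at -2.53 ± 0.21 on the log2 scale (95% interval -2.97 to -2.09, adjusted p = 1.22e-07), which is 5.79-fold. CNRIP1 (ENSDARG00000037337) was lower by 0.71 ± 0.20 (95% interval -1.12 to -0.30, adjusted p = 0.0412). NEUROD1 differed by -0.26 ± 0.06 (adjusted p = 0.0228), vamp2 by -0.26 ± 0.07 (adjusted p = 0.0409) and CPLX2 by -0.24 ± 0.07 (adjusted p = 0.0439). For tubb5, which fell with both, no difference was detected: it was -0.04 ± 0.06 with a 95% interval of -0.16 to 0.08. SNAP25 (ENSDARG00000058117) differed by -0.26 ± 0.09, with a 95% interval of -0.44 to -0.08 and an adjusted p of 0.0959. Of the 34 members that did not pass, 30 had an interval within 1.5-fold.

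The ncam3 difference passed in all 21 alternatives run, that of NEUROD1 in 17, vamp2 in 12, CPLX2 in 11 and CNRIP1 (ENSDARG00000037337) in 8. Leaving out 1 library at a time left between 1 and 5 members called, with 1 left without BEZO 2 or without BaAQ 2. DESeq2 called 3, limma voom 4 and the likelihood ratio test 5. With the replicate number as a block 3 were called, and 1 at an adjusted p under 0.01.

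**Figure D3:**
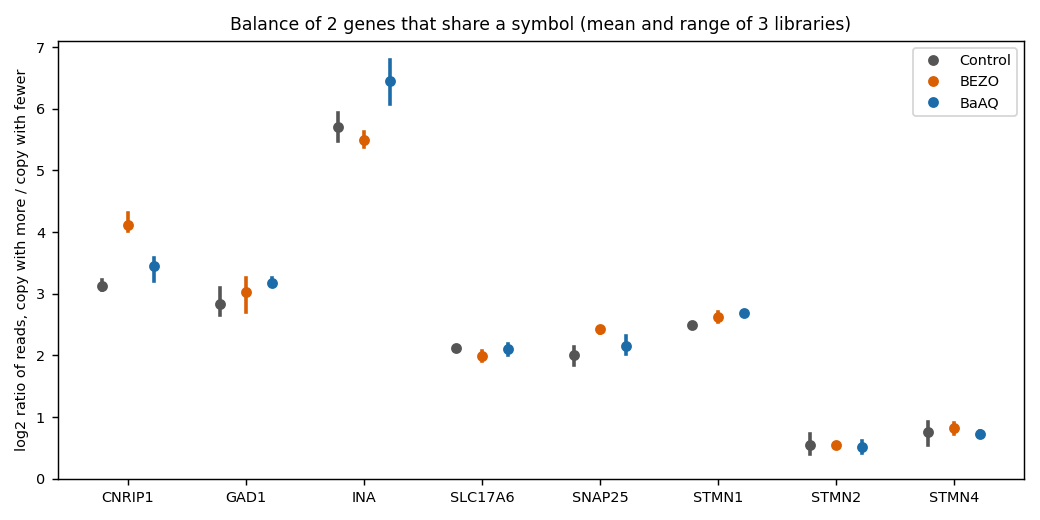
For 8 of the 9 symbols that stand for 2 genes, the log2 ratio of reads of the copy with more reads over the copy with fewer (y axis), as mean (point) and range (line) of the 3 libraries of each group. The CNRIP1 ratio is 3.12 in Control against 4.12 in BEZO, the SNAP25 ratio 2.01 against 2.43, while the STMN2 ratio stays near 0.55.

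Several of these genes occur as pairs, as is common in zebrafish after the genome duplication of teleost fish, and both copies of a pair can be followed within 1 library, where depth cancels. For CNRIP1 the log2 ratio of the more read to the less read copy was 3.12 ± 0.09 in Control, 4.12 ± 0.17 in BEZO and 3.45 ± 0.21 in BaAQ (SD, n = 3). For SNAP25 it was 2.01 ± 0.15, 2.43 ± 0.06 and 2.15 ± 0.15. Both ratios were higher in every BEZO library than in any Control library. The ratio of the STMN2 copies, by contrast, was 0.55 ± 0.16 in Control and 0.55 ± 0.01 in BEZO. In all, 4 of 9 ratios in BEZO and 3 of 9 in BaAQ lay outside the Control range in every library. No such share was computed over other gene pairs, so these counts only describe the 9 pairs. Of all single genes tested, 12.3% lay wholly above and 12.4% wholly below Control with BEZO, and 13.3% and 14.1% with BaAQ. With 3 libraries against 3, an exact two-sided permutation test cannot go below p = 0.1, and over the 27 comparisons of ratios the smallest adjusted p was 0.27, so none passed. Similar copies may share reads.

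A wider set of neuronal genes was taken from 6 further lists. Like the members, these lists and those of other cell types were chosen with earlier results of these data known. Their shares beside all genes are therefore a description and not a test. Of 277 listed names 244 were matched. Genes that are members were left out, which gave 254 genes, and 232 of them were tested. With BEZO 13 were lower and 1 higher, or 6.03%, close to the 6.44% of all genes called in either direction, while the 5.60% that were lower compare with 3.35% of all genes. BEZO lay wholly below Control for 59 of the 232, or 25.4%, against 12.4% of all genes, and the median log2 fold change was -0.04. With BaAQ 5 were lower and 3 higher, or 3.45%, below the 10.2% of all genes, with a median of 0.02. In the direct comparison 11 were lower in BEZO and 0 higher, or 4.74%, beside 4.84% of all genes called and 2.56% called lower, and the median was -0.06. An unadjusted p under 0.05 was found for 41 of the 232, near the share over all genes (3397 of 18860). DESeq2 called 8, limma voom 9 and the likelihood ratio test 15.

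The vesicle cycle list held 33 tested genes, of which 3 fell with BEZO, or 9.09%, against 3.35% of all genes. Of the 33, 27 had negative estimates (81.8%, against 50.2% of all genes). The synaptotagmin gene syt5b was at 42.4 ± 3.67 CPM in Control, 20.9 ± 3.85 CPM in BEZO and 43.4 ± 0.819 CPM in BaAQ, a fall of 1.01 ± 0.11 on the log2 scale (adjusted p = 3.14e-06). The synaptophysin gene sypb and the synaptogyrin gene SYNGR1, both for proteins of the vesicle membrane, fell by 0.40 ± 0.09 and 0.34 ± 0.08. The sypb call ended without Control 2 (adjusted p = 0.0506), and that of SYNGR1 without Control 1, Control 2, BEZO 2 or BEZO 3 (adjusted p = 0.0602 to 0.0655). With BaAQ the active zone gene PCLO rose by 0.37 ± 0.10, and no other gene of the list passed. This is 3.03% of the list, below the 10.2% of all genes called. BaAQ 3 held 162 CPM of PCLO and the other BaAQ libraries 112 and 115 CPM; the estimate without BaAQ 3 was 0.18 (adjusted p = 0.125), and the call also ended without Control 2 or Control 3 (adjusted p = 0.065 and 0.0889). Directly compared, 4 of the 33 were lower in BEZO than in BaAQ and 0 higher. These are 12.1%, beside 2.56% of all genes called lower. DESeq2 called 3 of the 33, limma voom 2 and the likelihood ratio test 4. Among the 4 called by edgeR, syt5b was lower by 1.06 ± 0.11 and RAB3A, for a vesicle GTPase, by 0.43 ± 0.11. PCLO was lower by 0.36 ± 0.10, but without BaAQ 3 by 0.17 (adjusted p = 0.215), and limma voom did not call it (adjusted p = 0.0625). The RAB3A call ended without any 1 of the BEZO libraries, BaAQ 1 or BaAQ 3 (adjusted p = 0.0608 to 0.0719).

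Of 45 receptor and channel genes, 2 fell with BEZO, or 4.44%, near the 3.35% of all genes. They were the glutamate receptor subunit genes GRIN1 (-0.41 ± 0.09) and GRIA3 (-0.34 ± 0.09). Of the 45, 35 had negative estimates (77.8%, against 50.2% of all genes). With BaAQ 1 of the 45 was lower and 0 higher, or 2.22%, below the 10.2% of all genes called. Negative estimates with BaAQ were found for 17 (37.8%, against 49.4% of all genes). GRIN1, GRIA3 and GRIN2B were lower in BEZO than in BaAQ, by 0.34 ± 0.09, 0.38 ± 0.10 and 0.41 ± 0.09. These 3 of 45 are 6.67%, beside 2.56% of all genes called lower, and 0 were higher. The GRIA3 call against Control ended without Control 1, Control 3, BEZO 1 or BEZO 2 (adjusted p = 0.0982 to 0.166). It also ended with DESeq2 (adjusted p = 0.0705), with library totals alone (0.0748) and with thinning to the smallest total (0.0577). The GRIA3 call against BaAQ ended without BEZO 1, BEZO 2, BaAQ 2 or BaAQ 3 (adjusted p = 0.0619 to 0.109). The call of GRIN1 against BaAQ ended without BEZO 2, BaAQ 1 or BaAQ 3 (adjusted p = 0.0782 to 0.137). Of 21 further transmitter genes, 1 was lower with BEZO and 1 with BaAQ, and 0 were higher. Each is 4.76%, beside 3.35% and 5.41% of all genes called lower. SLC17A7, a vesicular glutamate transporter gene, fell with BEZO by 1.79 ± 0.36 from 2.71 ± 0.778 to 0.773 ± 0.382 CPM. The glutaminase gene GLS2 fell with BaAQ by 1.69 ± 0.32 from 2.00 ± 0.0332 to 0.604 ± 0.116 CPM. DESeq2 gave no adjusted p for GLS2 with BaAQ and called 0 of the 21 in that comparison, where 4 had an unadjusted p under 0.05 in edgeR. Both genes were read few times.

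Of 47 neuronal transcription factor genes, 2 fell with BEZO, or 4.26%, near the 3.35% of all genes. Positive estimates were found for 30 and negative ones for 17 (36.2%, against 50.2% of all genes). BEZO lay wholly above Control for 11 (23.4%, against 12.3% of all genes) and wholly below it for 6 (12.8%, against 12.4%). Those that fell were POU4F2 (-0.37 ± 0.07), known from retinal ganglion cells, and POU4F3 (-0.86 ± 0.18), known from sensory hair cells. With BaAQ 0 of the 47 passed by any of the 4 tools, and 0 had an unadjusted p under 0.05. Of 54 axon and cytoskeleton genes, 5 were lower with BEZO (9.26%) and 1 higher, beside 3.35% and 3.09% of all genes. With BaAQ 2 were lower and 1 higher, or 5.56%, below the 10.2% of all genes called. TUBA1A, an alpha tubulin gene, fell with both compounds, by 0.44 ± 0.06 and 0.29 ± 0.06, and so did tuba1b, by 0.31 ± 0.08 and 0.50 ± 0.08. The BEZO call of tuba1b ended without Control 1, BEZO 1 or BEZO 3 (adjusted p = 0.0674 to 0.1045), and the BaAQ call of TUBA1A without Control 3 (adjusted p = 0.0514). CNTN1, for the axonal adhesion protein contactin, fell with BEZO by 0.72 ± 0.11, and CRMP1, which acts in axon guidance, by 0.49 ± 0.09. MAP1LC3A, whose product coats autophagosomes, rose with both, by 0.45 ± 0.08 and 0.57 ± 0.08. Of 32 genes of neuronal RNA binding and secretion, edgeR called 0 with BEZO (4 at an unadjusted p under 0.05, and 0 by the other 3 tools). With BaAQ it called 1 higher and 1 lower, or 6.25%, below the 10.2% of all genes called.

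**Figure D4:**
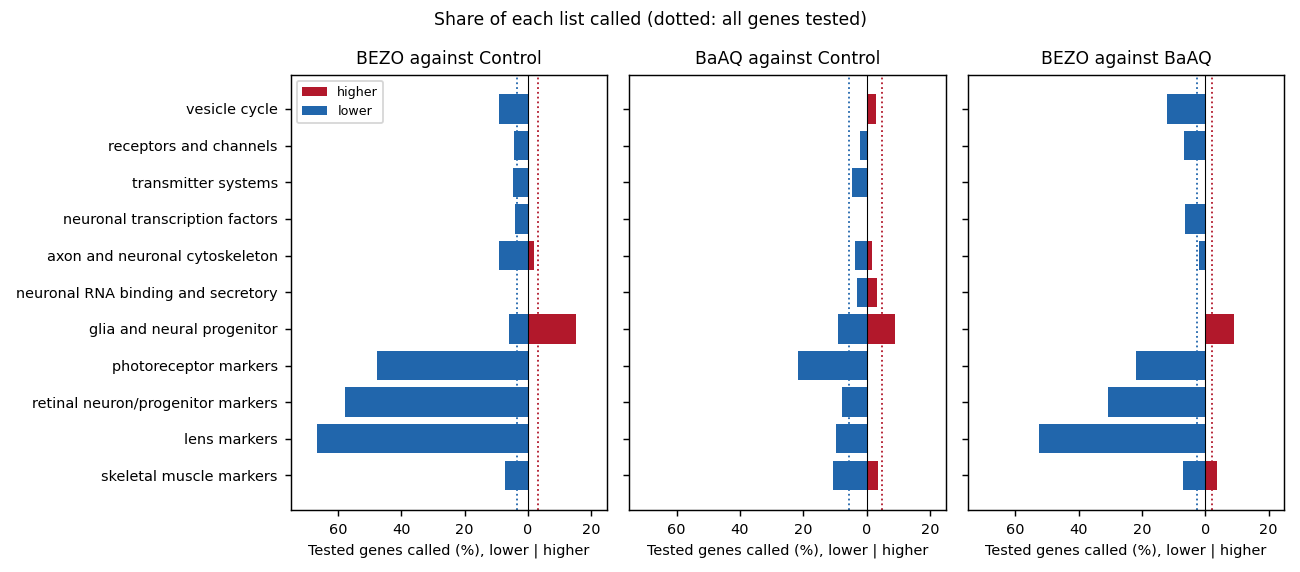
Percentage of tested genes called lower (blue, to the left) and higher (red, to the right) in 6 wider neuronal lists and 5 lists of other cell types, in the 3 comparisons. Dotted lines give the percentage of all tested genes called lower and higher. In BEZO against Control the bars for photoreceptor, retinal and lens markers reach 47.8, 57.7 and 66.7% lower.

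Markers of the eye were often lower with BEZO, in lists chosen with earlier results of these data known. Of 26 tested genes on the list named for retinal neurons and progenitors, 15 were lower and 0 higher, or 57.7% lower, where 3.35% of all genes were. Among them, rx2, a homeobox gene of the retina, fell by 1.03 ± 0.11. The list is not confined to neurons and progenitors. From it, rlbp1a, for a retinaldehyde-binding protein of the visual cycle, fell by 1.27 ± 0.13. The summed level of this list was 948 to 1021 CPM in Control, 783 to 806 CPM in BEZO and 926 to 943 CPM in BaAQ. Photoreceptor markers were lower for 11 of 23 with BEZO (47.8%), summing to 441 to 470 CPM in Control, 250 to 304 CPM in BEZO and 367 to 401 CPM in BaAQ. Lens markers were lower for 14 of 21 (66.7%), summing to 2781 to 3041, 2007 to 2238 and 2485 to 2981 CPM. No gene of these lists was at 0 over all libraries of a group. With BaAQ 2 of 26 retinal, 5 of 23 photoreceptor and 2 of 21 lens markers were lower, and 0 were higher. These are 7.69, 21.7 and 9.52%, beside 5.41% of all genes called lower with BaAQ. The retinal ones included rx2, lower with BaAQ by 0.45 ± 0.11 (adjusted p = 0.0084), a call that ended without BaAQ 3 (adjusted p = 0.0589). For rlbp1a the log2 fold change with BaAQ was 0.05 ± 0.12. The retinal list and the list of neuronal transcription factors share 6 genes. Whether retinal neurons account for the falls of NEUROD1, SNAP25, CPLX2 or CNRIP1 was not tested.

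Of the glia and neural progenitor markers, with BEZO 5 of 33 were higher and 2 lower, among them VIM, for vimentin, up by 0.32 ± 0.06, OLIG2, a factor of motor neuron and oligodendrocyte precursors, up by 0.42 ± 0.09, and FABP7, a fatty acid binding protein gene of radial glia, down by 0.55 ± 0.08. Over all genes 3.09% were higher and 3.35% lower. Positive estimates with BEZO were found for 28 of the 33 and negative ones for 5 (15.2%, against 50.2% of all genes). BEZO lay wholly above Control for 14 (42.4%, against 12.3% of all genes) and wholly below it for 2 (6.06%, against 12.4%). The OLIG2 call ended without Control 2 (adjusted p = 0.0532). With BaAQ 3 were higher and 3 lower, beside 4.82% and 5.41% of all genes. Among these, FABP7 was down by 0.45 ± 0.08 and VIM up by 0.20 ± 0.06, while OLIG2, at 0.03 ± 0.10, did not pass. The VIM call with BaAQ ended with DESeq2 (adjusted p = 0.0504) and without any 1 of the Control libraries (adjusted p = 0.0735 to 0.119). Skeletal muscle markers summed to 81795 to 85788 CPM in Control, 75358 to 79139 CPM in BEZO and 79591 to 84990 CPM in BaAQ. Of these 28 genes, 2 were lower with BEZO (7.14%), and 3 lower (10.7%) and 1 higher with BaAQ. Negative estimates with BEZO were found for 22 (78.6%, against 74.4% of the members and 50.2% of all genes). BEZO lay wholly below Control for 8 of the 28 (28.6%, against 35.9% of the members and 12.4% of all genes). It lay wholly above for 1 (3.57%, against 12.3% of all genes).

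**Figure D5:**
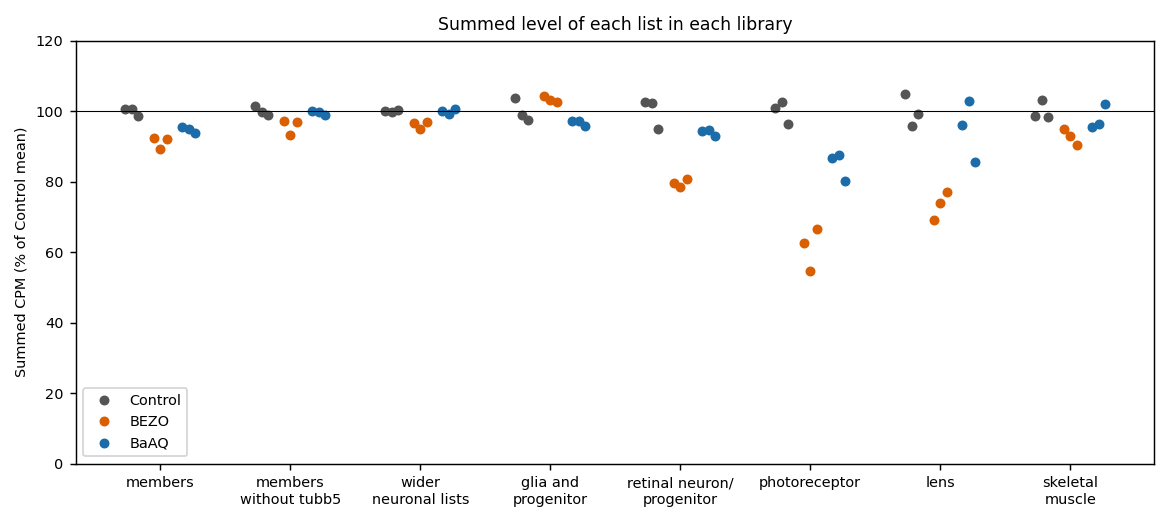
Summed CPM of each list in each library, as a percentage of its mean over the Control libraries (y axis, from 0). BEZO libraries average 91.3% for the members, 95.8% for the members without tubb5, 79.7% for the retinal list and 61.2% for the photoreceptor list, and BaAQ libraries 94.8, 99.6, 93.9 and 84.9%.

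Summed over all 39 members, the level was 5332 ± 58.7 CPM in Control, 4867 ± 87.6 CPM in BEZO and 5053 ± 43.4 CPM in BaAQ, so that both exposed groups lay below Control after TMM scaling. As a share of all counted reads, BaAQ (0.509 to 0.517%) overlapped Control (0.515 to 0.527%), and BEZO (0.471 to 0.498%) stayed below it. A large share of the lower TMM-scaled sums came from tubb5. Without it the sums were 4435 ± 57.7, 4249 ± 102 and 4419 ± 24.4 CPM, and BaAQ overlapped Control while BEZO, at 4131 to 4314 CPM, remained below the lowest Control library at 4383 CPM. That gap rests on TMM scaling, whose factors were 0.961 to 0.997 in Control and 0.988 to 1.015 in BEZO. With library totals alone, the sums of BEZO without tubb5 overlapped those of Control.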

How the data were processed

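Poly-A RNA from whole embryos was sequenced as ScriptSeq v2 libraries from samples with an RNA integrity number over 9, per the labels' protocols. The authors deposited raw read counts per Ensembl gene for 9 libraries. Tools listed in the submitters' processing notes, without roles, are HTSeq, TopHat2, edgeR, FastQC and CASAVA 1.8, with the build Zv9, and whether counting used strand is not given in the sources used here. Symbols came from the reference gene-name table, which paired 20769 of 32434 genes with one. The members and all lists were chosen with earlier results of these data known.

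Counts were tested with edgeR 4.0.16 in R 4.3.3 (filterByExpr, TMM, quasi-likelihood test, 3 groups in 1 fit, 6 residual degrees of freedom, Benjamini-Hochberg adjustment over 18860 genes). The typical biological coefficient of variation was 7.23%. CPM values use TMM-scaled totals. Copy ratios used reads plus 0.5. Totals of 8106613 to 14435626 reads limit precision for members near 2 CPM. The scripts were tested on simulated counts, with changes of 1.5-, 2- and 4-fold set in some of the tested genes. Over the 3 comparisons, 53.7 to 59.7% of the 1.5-fold changes and 79.1 to 86.6% of the 2-fold changes were recovered. Of the calls, 6.13 to 9.2% were false. Changes below 1.5-fold were not simulated. All members were named whatever their p; of each other list, up to 4 called genes with the smallest p per comparison were eligible. Alternatives were 3 other scalings, 2 other filters, DESeq2 1.42.0, the likelihood ratio test, limma 3.58.1 voom, a replicate block, fits of 2 groups, thinning, a threshold of 0.01, exact symbols, and each library left out. No member sequences were used here. Values of some individual genes are not reported here; the counts include them.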

Additional observations from a re-analysis of the deposited data

Results flagged for a closer look

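The direct comparison of the exposures (edgeR's quasi-likelihood test, 3 libraries each, adjusted over all tested genes) called 5 members, all lower in BEZO. These are 12.8% of the members, beside 4.84% of all genes called and 2.56% called lower. For ncam3 the log2 difference, BEZO minus BaAQ, was -2.53, and the gene was below Control in all 3 BEZO libraries and above it in all 3 BaAQ libraries. For CNRIP1 (ENSDARG00000037337) it was -0.71, for NEUROD1 -0.26, for vamp2 -0.26 and for CPLX2 -0.24, and in each the 3 BEZO libraries lay below the 3 BaAQ libraries. BEZO lay wholly below BaAQ for 33.3% of the members and 11.2% of all genes. The ncam3 call was kept in 21 of 21 alternatives, NEUROD1 in 17, vamp2 in 12, CPLX2 in 11 and CNRIP1 (ENSDARG00000037337) in 8. Against Control, vamp2 passed with neither compound.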

How the results depend on the processing

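The 6 members lower in BEZO than in Control stayed between 4 and 6 under the 22 alternatives, 4 being the count with exact symbols alone, and 5 to 6 with 1 library left out. In BaAQ against Control the members called were 4 with library totals only, and 2 to 3 with 1 library left out. In BEZO against BaAQ they were 3 with DESeq2, 3 with only the 2 groups compared, 1 at an adjusted p under 0.01, and 1 to 5 with 1 library left out. Over all genes, BEZO against Control gave 620 calls at 0.01 and 761 to 1502 with 1 library left out. BaAQ against Control gave 978 and 1276 to 1992. BEZO against BaAQ gave 409 and 531 to 883, and 1389 with no low count filter. Scaling by library totals alone moved the share of calls that were higher from 47.9 to 60.2% for BEZO and from 47.1 to 64.6% for BaAQ. No gene called in the main test and named in the text changed sign in an alternative run; some estimates near 0 that had not passed did. The cause of these shifts was not tested.

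No pairing by replicate number was seen: deviations of same-numbered libraries correlated between -0.036 and 0.029. Those of differently numbered libraries correlated between -0.052 and 0.049. With 3 libraries per group, these correlations cannot exclude a shared day or spawn. With the replicate number as a block, 1184, 1916 and 839 genes and 6, 2 and 3 members were called in BEZO against Control, BaAQ against Control and BEZO against BaAQ; the calls of vamp2 and CPLX2 between the exposures were those lost.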

Other observations

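Because tubb5 fell with both compounds, the tubulin genes were counted as a family; this choice was made after their values were seen. Of 17 alpha, beta and other tubulin genes, all tested, 6 were lower and 0 higher with BEZO, and 6 lower and 0 higher with BaAQ (edgeR). In both comparisons the 6 include tubb5 itself, and also TUBA1A and tuba1b, already named above. The count is therefore a description and not a test. Over all tested genes 3.35% were lower and 3.09% higher with BEZO, and 5.41% and 4.82% with BaAQ. Apart from tubb5, no beta tubulin gene was called lower with both compounds. Between the exposures 1 tubulin gene was higher in BEZO and 1 lower. Under 3 other scalings 5 to 6 were lower with BEZO and 5 to 7 with BaAQ. Both comparisons share the Control libraries. Tubulin copies have similar coding sequences, so their reads may be shared.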
